A study of Mus musculus with 8 samples.

Results

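Adcy7 and 6 further genes of cyclic AMP signalling (Adcy6, Gnai2, Gnai3, Gnas, Prkar1a and Prkaca) were followed in primitive erythroid precursors, which are the first red cells that a mouse embryo makes and which form in its yolk sac. All 15 probe sets that the platform annotation assigns to these 7 genes alone were used, out of 22626 probe sets on the arrays. Some members were picked because of their difference between the genotypes in these same arrays, in particular Adcy7, Gnai2, Adcy6 and Prkar1a. Their genotype differences are therefore given as a description and not as evidence. The samples were 4 arrays labelled KLF2-/- (KO11, KO12, KO13 and KO14) and 4 arrays of wild type FVB/N embryos (WT3, WT5, WT7 and WT9), all at embryonic day 9.5. KLF2 belongs to the Krüppel-like zinc finger proteins, which regulate transcription, and its label names no tissue-specific deletion. Embryos of that line were genotyped by PCR on tail tissue. The sources do not state the background strain of that line, and strain and genotype cannot be told apart. They also differ on its dams, called KLF2-/- in one place and KLF2+/- in another. Erythroid cells were cut by laser from frozen sections of 8 micrometres. Each replicate pooled 2 to 4 yolk sacs from 2 litters. A two-cycle protocol then amplified RNA, starting from 10 to 20 ng in the group labelled KLF2-/- and from 10 to 39 ng in wild type.

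Adenylate cyclases are membrane enzymes that make cyclic AMP from ATP. The stimulatory G protein alpha subunit, encoded by Gnas, activates them, and the inhibitory alpha subunits, encoded by Gnai2 and Gnai3, restrain several of them. Cyclic AMP then releases the catalytic subunits of protein kinase A (Prkaca) from regulatory subunits (Prkar1a), and the kinase phosphorylates CREB, which activates genes with cyclic AMP response elements. In red cells of the chick embryo, adenosine and adrenergic receptors raise cyclic AMP, and carbonic anhydrase II is among the genes induced. In adult human erythroid cells, agents that raise cyclic AMP have been used to induce fetal globin.

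The table holds 1 value per probe set and array on a log2 scale, so a difference of 1 is a 2-fold difference. The arrays had medians between 5.08 and 5.20. The targeted gene's probe set, Klf2 1448890_at, measured 5.38, 5.77, 7.15 and 5.89 in KO11 to KO14 and 5.18, 5.28, 4.97 and 5.70 in WT3, WT5, WT7 and WT9. It was thus not lower in the arrays labelled KLF2-/-, and KO13 was the highest. The sources do not state which part of Klf2 was deleted or whether these probes lie in it, so these values cannot check the labels, and every direction below rests on the labels. WT3 and WT5 scored 48.2 and 43.5 on a first principal component with 33.1% of the variance, apart from the other arrays at -43.0 to 13.5. Of 16 listed erythroid markers 13 were measured, all 13 at or above the median gene level, and embryonic globin Hbb-bh1 averaged 14.09. Markers of neighbouring tissue were bright too, with 11 of 13 visceral endoderm and 9 of 12 mesenchyme and mesothelium markers at or above that level. Among them were the visceral endoderm genes Ttr (12.74) and Afp (12.47) and the mesenchymal gene Col3a1 (11.67). In pooled captures of this kind, fewer cells of a type and less RNA per cell cannot be told apart. By limma over the whole table, 0 of 22626 probe sets passed an adjusted p of 0.05 (0.0%), and 1222 (5.4%) had an unadjusted p below 0.05, of which 788 were higher (3.48%) and 434 lower (1.92%).

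Adcy7, a cyclase abundant in blood cells and platelets, was lower at its brightest probe set in every array labelled KLF2-/- than in any wild-type array. The probe set 1456307_s_at measured 7.16, 7.003, 6.06 and 7.59 in KO11, KO12, KO13 and KO14. In WT3, WT5, WT7 and WT9 it measured 8.27, 8.05, 8.77 and 8.29. The groups did not overlap, and the gap between KO14 and WT5 was 0.46. The group means were 6.95 ± 0.64 (SD, n = 4) and 8.34 ± 0.30 (SD, n = 4), a log2 difference of -1.39 (SE 0.31, 95% interval -2.09 to -0.69), or 2.62-fold lower. With adjustment over all probe sets it did not pass (adjusted p = 0.860, limma). Among all probe sets 1.38% were lower in this non-overlapping way, and this one was picked for it.

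KO13, the array with the highest Klf2 value, was the lowest of the 8 for Adcy7, and KO14 was the highest of its group, so the difference was -1.09 without KO13 and -1.60 without KO14. It was -1.57 without WT3 and WT5. Within the group labelled KLF2-/- the order of the arrays was that of the erythroid marker list, whose mean deviation from its average was 0.57 in KO14, 0.40 in KO11, -0.13 in KO12 and -0.79 in KO13. In wild type the list stood at 0.41 in WT9 and 0.37 in WT7, the brightest arrays for Adcy7, and at -0.34 in WT5 and -0.48 in WT3. The orders were not the same there. WT9 and WT3, the highest and lowest wild-type arrays for the list, were nearly equal for Adcy7, at 8.29 and 8.27. The list overlapped between the groups, and its summed level was 15.24 to 15.56 in the arrays labelled KLF2-/- and 15.33 to 15.51 in wild type. A summed level is the log2 of the sum of unlogged values, so the brightest markers set most of it. Here these were the embryonic globins Hbb-bh1 (mean 14.09) and Hbb-y (13.55), and the sum says little about the dimmer markers. With the erythroid list as a covariate, a setting added after the data were seen, the difference was -1.41 (SE 0.19, adjusted p = 0.658, limma). The list averaged nearly the same in both groups, so this setting could hardly move the difference, whatever the list's part in it. That part was not tested. The visceral endoderm list ran in the reverse order within the group labelled KLF2-/-, at -2.03 in KO14, -0.28 in KO11, 0.57 in KO12 and 0.88 in KO13. It lay at -0.02 to 0.44 in wild type. Its part in the Adcy7 difference was not tested.

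The other Adcy7 probe sets were dim, and their groups overlapped. The probe set 1450065_at measured 4.08, 3.86, 3.20 and 3.51 in KO11 to KO14, and 3.87, 3.70, 5.14 and 4.90 in WT3, WT5, WT7 and WT9. Its groups overlapped because WT3 and WT5 lay among the arrays labelled KLF2-/-, while WT7 and WT9 were above them all. Its difference was -0.74 (SE 0.35, 95% interval -1.54 to 0.06) over all arrays, -1.36 without WT3 and WT5, and -0.49 without WT7. The probe set 1420970_at lay between 3.82 and 4.53 on every array, with a difference of -0.02 (95% interval -0.40 to 0.37). Both dim probe sets ranked at percentiles 25.4 and 27.0 of mean brightness, against 82.2 for the bright one, and the sources do not say whether they lie above background. The suffix _s_at marks probe sets whose probes match more than 1 transcript, and which Adcy7 transcripts each probe set reads was not tested.

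**Figure D1:**
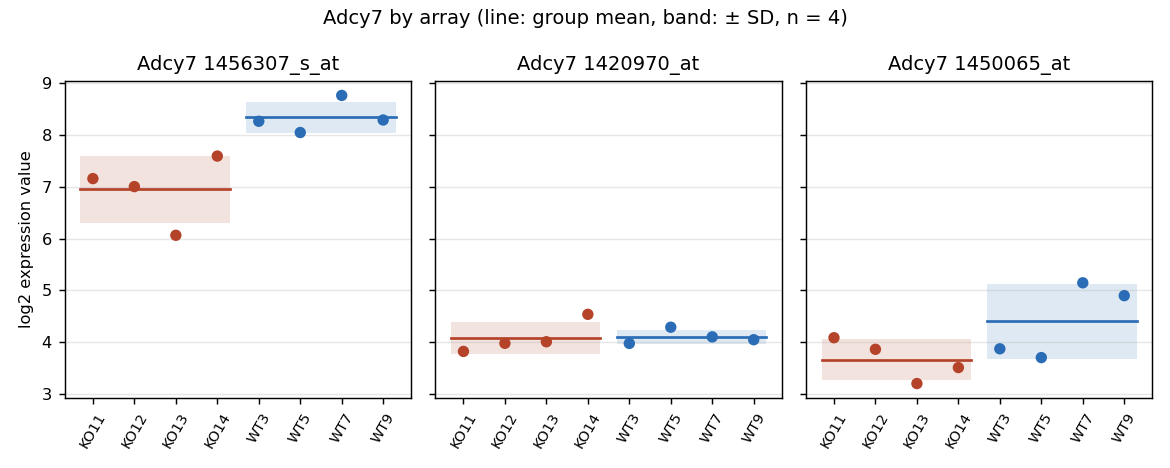
Log2 expression value (vertical axis) of the 3 Adcy7 probe sets on each of the 8 arrays (horizontal axis; red KLF2-/-, blue wild type), with group means as lines and ± SD as bands (n = 4). In the brightest probe set all arrays labelled KLF2-/- lie below all wild-type arrays, with a gap of 0.46, while the dim probe sets overlap.

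In the authors' deposited table, which gives each probe set a signed score headed S-score, the bright Adcy7 probe set had a score of -5.14 at a q of 0.000198, rank 30 of 22626 by size. There, 219 probe sets (0.968%) had a q below 0.05 and 105 (0.464%) were lower. The scores summarise the same arrays, and Adcy7 was picked from this contrast, so its q and rank are not separate evidence. A negative score is read as lower in the arrays labelled KLF2-/-, because the scores correlated positively with the log2 differences across probe sets (r = 0.796), and the header does not state it. The dim probe sets had scores of -1.94 (q = 0.664) and 0.42 (q = 1.00) in the authors' deposited table. No other member reached a q below 0.05 there; Gnai2 came closest, with a score of 3.14 at a q of 0.112.

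The Adcy7 gene lies on chromosome 8 (88272190 to 88329965). Positions here and below are those of GRCm38.p6. The arrays read RNA and not promoters, and the start regions of Adcy7 are shown because its genotype comparison concerns a factor of the KLF family, whose members bind CACCC boxes. RefSeq windows of 300 bases (GRCm38.p6, 250 bases before to 50 after a start) were found for 3 Adcy7 starts. They lie at chr8:88282742-88283041, chr8:88288816-88289115 and chr8:88293954-88294253, all on the plus strand. All 3 are inside the annotated gene, and none covers its first base at 88272190. The capitals mark CACCC or its reverse complement GGGTG.
Adcy7 start 1: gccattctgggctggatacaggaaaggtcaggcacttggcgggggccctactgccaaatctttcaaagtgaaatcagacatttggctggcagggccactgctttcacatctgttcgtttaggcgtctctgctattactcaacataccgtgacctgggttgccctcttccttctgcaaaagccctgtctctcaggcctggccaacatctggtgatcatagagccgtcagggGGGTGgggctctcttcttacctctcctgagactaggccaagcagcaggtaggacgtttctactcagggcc
Adcy7 start 2: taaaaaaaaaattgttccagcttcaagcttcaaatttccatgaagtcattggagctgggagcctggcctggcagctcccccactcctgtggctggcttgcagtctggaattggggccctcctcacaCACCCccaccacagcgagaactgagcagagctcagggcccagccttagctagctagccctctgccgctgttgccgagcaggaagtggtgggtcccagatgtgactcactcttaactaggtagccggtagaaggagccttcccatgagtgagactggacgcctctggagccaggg
Adcy7 start 3: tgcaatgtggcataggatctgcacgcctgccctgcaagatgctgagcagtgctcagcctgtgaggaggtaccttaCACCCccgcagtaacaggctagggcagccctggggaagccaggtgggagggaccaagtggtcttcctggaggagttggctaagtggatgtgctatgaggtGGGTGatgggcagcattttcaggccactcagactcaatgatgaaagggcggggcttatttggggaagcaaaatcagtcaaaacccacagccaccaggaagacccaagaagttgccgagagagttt
CACCC was found on either strand 1, 1 and 2 times in these windows, and 57.5% of all 32851 such windows hold it at least once. The longer pattern CCNCNCCC, which can overlap a CACCC, was found 2, 0 and 1 times, and 49.5% of all windows hold it. A match of this length is common and is a description of the letters alone.

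Adcy6 (chr15:98589978-98610287), a cyclase that calcium and the inhibitory G proteins restrain, had a difference in the other direction at its single probe set, 1418128_at. It measured 6.25, 6.42, 6.23 and 5.95 in KO11 to KO14, and 5.59, 6.10, 5.36 and 6.12 in WT3, WT5, WT7 and WT9. KO14 lay below WT5 and WT9, so the groups overlapped. The means were 6.21 ± 0.19 and 5.79 ± 0.38 (SD, n = 4 each), a difference of 0.42 (SE 0.20, 95% interval -0.04 to 0.87, adjusted p = 0.860, limma). Leaving out single arrays gave 0.27 (without WT7) to 0.53 (without WT9).

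Gnai2 (chr9:107614125-107635391), an inhibitory alpha subunit abundant in blood cells, was on average higher in the arrays labelled KLF2-/- at both of its probe sets. The brighter, 1435652_a_at, measured 9.95, 10.58, 10.50 and 9.87 in KO11 to KO14, and 9.25, 9.08, 9.57 and 9.997 in WT3, WT5, WT7 and WT9. WT9 alone among wild-type arrays reached the range of the arrays labelled KLF2-/-, lying above KO11 and KO14. The difference was 0.75 (SE 0.24, 95% interval 0.20 to 1.31, adjusted p = 0.860, limma), and 0.44 (95% interval -0.20 to 1.08) without WT3 and WT5. The dimmer, 1419449_a_at, measured 7.55, 7.14, 7.18 and 6.44 in KO11 to KO14 and 5.85, 5.61, 5.95 and 7.48 in wild type, again with WT9 high. Its difference of 0.86 (SE 0.41) was 1.28 without WT9 and 0.37 without WT3 and WT5.

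Gnai3 (chr3:108107275-108146152), a second inhibitory alpha subunit with overlapping roles, differed little between the groups over all 8 arrays, within wide limits. Its probe set 1428645_at measured 9.64, 9.40, 9.45 and 9.21 in KO11 to KO14 and 9.51, 9.91, 8.77 and 9.16 in WT3, WT5, WT7 and WT9. The wild-type arrays spanned a wider range than the arrays labelled KLF2-/- and enclosed them. The difference was 0.09 (95% interval -0.45 to 0.62) and ran from -0.10 without WT7 to 0.28 without WT5. The second probe set, 1437225_x_at, ran from 8.21 to 9.36 in the arrays labelled KLF2-/- and from 8.05 to 9.69 in wild type, a difference of 0.06 (95% interval -0.77 to 0.90) that ran from -0.21 without WT9 to 0.34 without WT5. Without WT3 and WT5 the differences were 0.46 (95% interval 0.002 to 0.92) and 0.61 (95% interval -0.21 to 1.43). The suffix _x_at marks probe sets that may also bind similar sequences.

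Gnas (chr2:174284320-174346744) encodes the stimulatory alpha subunit from an imprinted locus with several promoters, whose other products include an extra-large alpha subunit and a secretory protein. Its bright probe set, 1450186_s_at, measured 10.76, 11.36, 10.87 and 9.92 in KO11 to KO14. In wild type it measured 9.29 in WT3 and 9.32 in WT5 but 10.62 in WT7 and 10.76 in WT9. WT3 and WT5 were below every other array, and WT7 and WT9 lay within the range of the arrays labelled KLF2-/-. The difference was 0.73 (SE 0.42, 95% interval -0.23 to 1.69) over all arrays and 0.03 (95% interval -0.85 to 0.92) without WT3 and WT5. The other probe sets, 1453413_at, 1421740_at and 1427789_s_at, lay between 3.28 and 4.74 on every array. They differed by -0.26, 0.18 and -0.49, and each of the 3 intervals included 0. Single arrays set much of these sizes, since the differences were -0.12 without WT5, 0.02 without KO14 and -0.25 without WT7, in the same order. Which product of the locus each probe set reads was not tested.

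Prkaca (chr8:83972978-83996444), a catalytic subunit of protein kinase A, showed the same pair of low arrays. Its single probe set, 1450519_a_at, measured 6.34, 6.50, 6.43 and 6.64 in KO11 to KO14, and 5.67, 5.83, 6.35 and 6.66 in WT3, WT5, WT7 and WT9. WT7 and WT9 lay within or beside the narrow range of the arrays labelled KLF2-/- (SD 0.13), and WT3 and WT5 lay below it. The difference was 0.35 (SE 0.22, 95% interval -0.15 to 0.84) and turned to -0.03 (95% interval -0.43 to 0.38) without WT3 and WT5. It was 0.20 without WT3 alone and 0.52 without WT9.

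Prkar1a (chr11:109649023-109669663), a regulatory subunit that holds the kinase inactive without cyclic AMP, had probe sets that did not move together. The brighter, 1425550_a_at, measured 9.78, 9.67, 8.84 and 9.05 in KO11 to KO14 and 8.34, 8.69, 8.91 and 9.38 in WT3, WT5, WT7 and WT9. The groups overlapped, with WT7 and WT9 above KO13. The difference was 0.51 (SE 0.28, 95% interval -0.12 to 1.14), and 0.19 without WT3 and WT5. The other, 1452032_at, measured 7.20, 6.89, 7.02 and 7.06 in KO11 to KO14 but 7.54, 7.26, 5.40 and 7.70 in wild type, with WT7 far below every other array. Its difference was 0.07 (95% interval -0.95 to 1.09) over all arrays. It was -0.46 without WT7 but 0.50 without WT3 and WT5, 0.26 without WT3 and 0.31 without WT9.

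Prkar1a is also the one member whose RefSeq start windows hold the full cyclic AMP response element, TGACGTCA, which reads the same on both strands. Of 5 members with a window, it was found only in 2 overlapping Prkar1a windows on chromosome 11, which hold the same copy. Among all single windows 1.79% hold it, and Prkar1a had 6 windows, the most of any member. The match is a description of the letters alone. The window at chr11:109650699-109650998 (GRCm38.p6, plus strand) is shown with the element in capitals, because the kinase this gene restrains acts through factors that bind it.
Prkar1a start: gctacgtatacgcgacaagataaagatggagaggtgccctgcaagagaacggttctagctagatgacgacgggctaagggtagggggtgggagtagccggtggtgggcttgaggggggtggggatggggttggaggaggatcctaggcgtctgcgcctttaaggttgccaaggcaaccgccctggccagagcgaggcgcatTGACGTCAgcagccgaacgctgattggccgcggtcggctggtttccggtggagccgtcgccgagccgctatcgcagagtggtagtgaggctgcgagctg

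**Figure D2:**
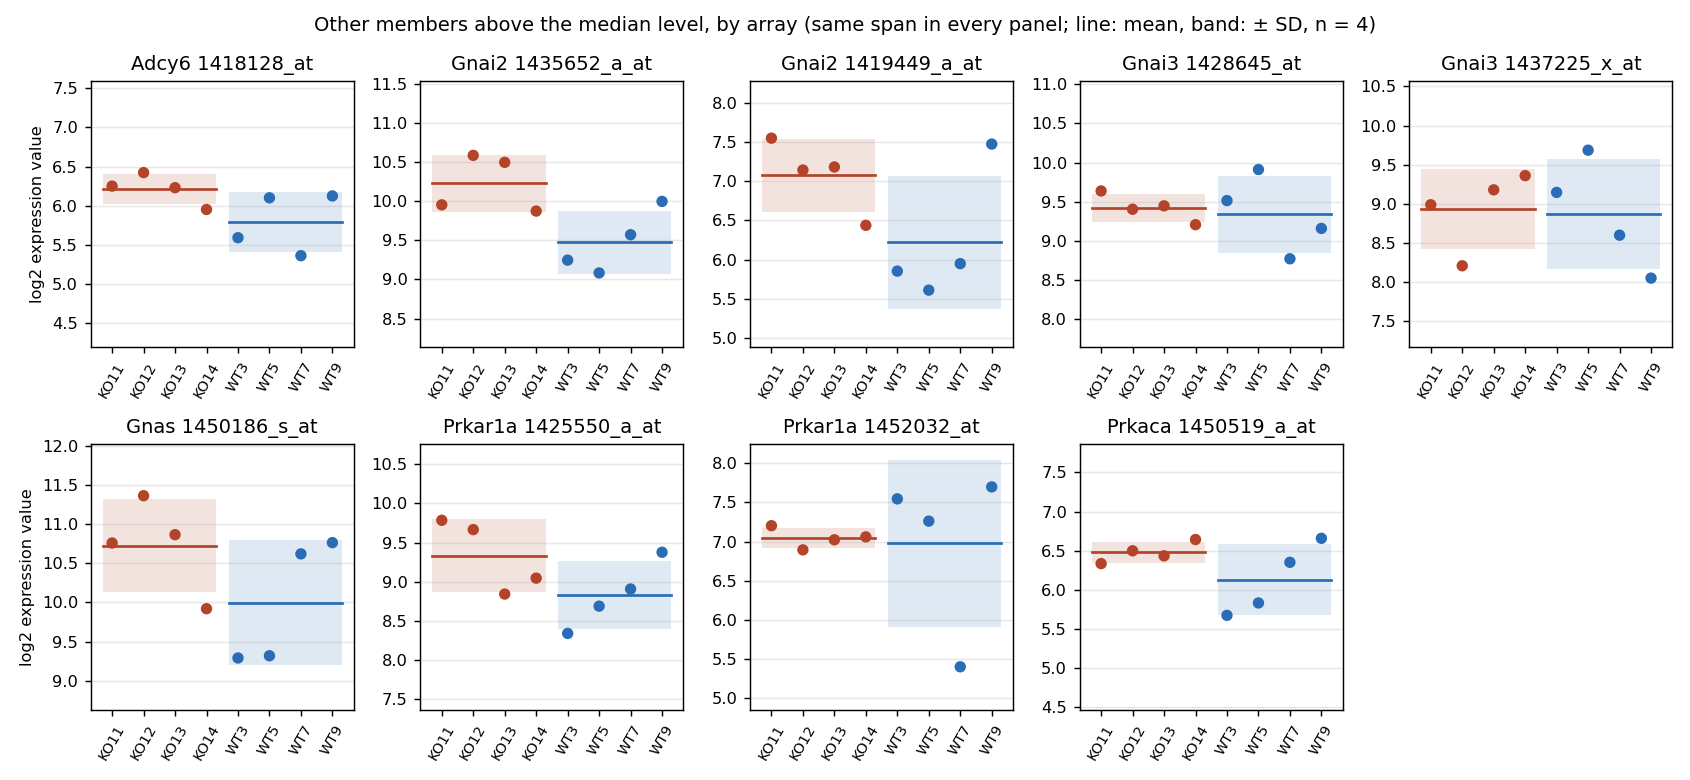
Log2 expression value (vertical axis, with the same span in every panel) of the 9 probe sets of the other members whose mean exceeded the median of all probe sets, on each array (horizontal axis; red KLF2-/-, blue wild type). Lines are group means and bands ± SD (n = 4); WT3 and WT5 are the lowest pair for both Gnai2 probe sets and for Gnas, Prkaca and Prkar1a 1425550_a_at.

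WT3 and WT5 held the lowest pair of values among the 8 arrays at 5 of the 15 member probe sets and the highest pair at 1. Over all probe sets they were the lowest pair at 9.36% and the highest at 9.39%. Both Gnai2 probe sets and the brightest ones of Gnas, Prkaca and Prkar1a made up the 5. Adcy7 was not among them, since its low values were in the arrays labelled KLF2-/-. Gnai2 and Prkar1a were among the members picked for their difference in these arrays, which low values in WT3 and WT5 enlarge. Nothing is therefore read from the 5 of 15 beside the share of all probe sets.

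Probe sets of 1 gene followed each other over the 8 arrays to different degrees, given here as Pearson r with no test. The bright Adcy7 probe set had r = 0.73 with 1450065_at and 0.22 with 1420970_at. The Gnai2 pair had 0.81, the Gnai3 pair 0.56 and the Prkar1a pair 0.02. Gnas 1450186_s_at ran against its dim probe set 1453413_at, with r = -0.87. Between genes, from their brightest probe sets, Gnai2 and Gnas were the most alike, at 0.88, and at 0.87 after each group's mean was subtracted. All of these values share WT3 and WT5, which are low for both genes.

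Over the 15 probe sets, 10 were on average higher in the arrays labelled KLF2-/- and 5 lower, with a median difference of 0.09 beside 0.01 for all probe sets. By limma 0 of the 15 passed (0.0% of all probe sets did), with adjusted p from 0.860 to 0.993. At an unadjusted p below 0.05 there were 2, the bright probe sets of Adcy7 and Gnai2, where 5.4% of all probe sets met that limit. The groups were apart at 1 of 15, against 2.99% of all probe sets, with 0 apart and higher (1.61% of all). Since some members were picked from this contrast, nothing is read from these shares.

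**Figure D3:**
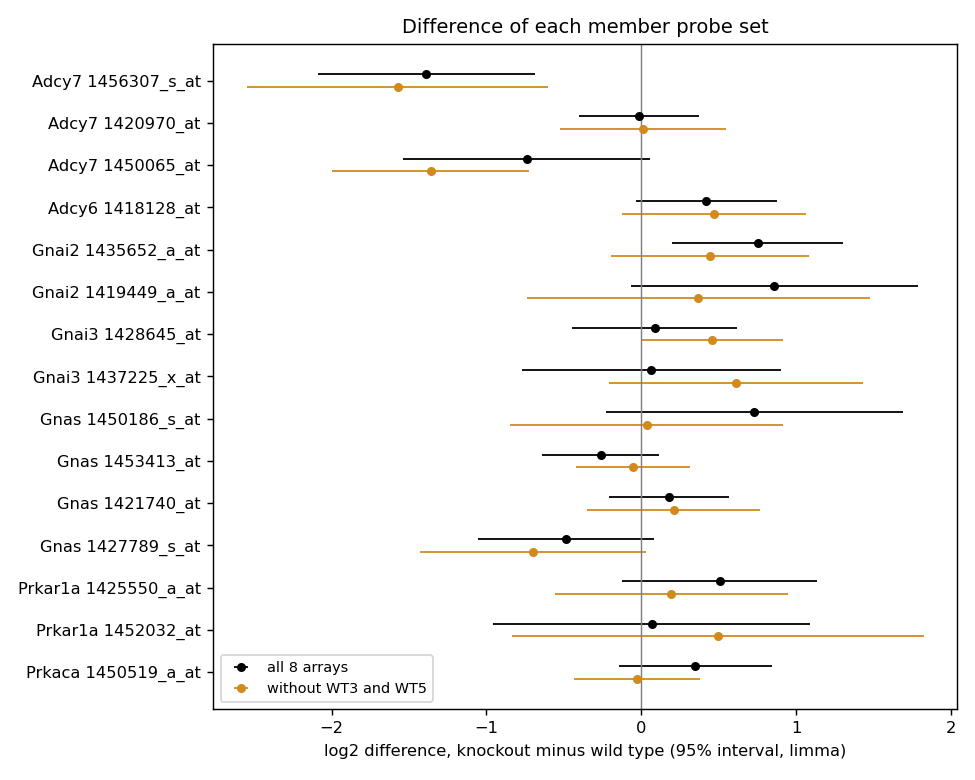
Log2 difference, KLF2-/- minus wild type, of each of the 15 member probe sets with its 95% interval from limma (horizontal axis), from all 8 arrays in black and without WT3 and WT5 in orange. The bright Adcy7 probe set stays below 0 in both, while Gnas 1450186_s_at and Prkaca move from 0.73 and 0.35 to 0.03 and -0.03.

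The wider pathway was described with a list of 155 genes in 12 roles, of which 118 were measured by a probe set of their own and the rest were not analysed here. Each gene was read from its brightest probe set. At or above the median gene level were 48 of the 118, and the sources do not say whether the dimmer ones lie above background. Of the 118, 60 were on average higher and 58 lower, with a median difference of 0.01 beside 0.02 for all 12393 genes. By limma 0 passed an adjusted p of 0.05 (0.0% of all genes), and 6 had an unadjusted p below 0.05 (5.08%), beside 5.11% of all genes. Of these 4 were higher (3.45% of all genes) and 2 lower (1.65%). Without the 7 members, some of which were picked from this contrast, 54 of 111 were higher and 57 lower, with a median of -0.01, and 4 (3.6%) had an unadjusted p below 0.05. The groups were apart at 4 of those 111 (3.6%). Over the whole list the 6 at an unadjusted p below 0.05 became 3 without WT3 and 13 without WT9. Among all probe sets the 1222 at that limit became 637 and 1962 in these settings. The groups were apart at 5 of the 118 (4.24%), beside 2.61% of all genes. Adcy7 and Pde1c were the lower ones (1.07% of all genes), and Gnb5, Gng10 and Per1 the higher ones (1.55%). The count of 5 was 8 without KO13, 12 without KO14 and 10 without WT9. Fewer arrays make separation easier, and the share of all genes in these settings is not given here, so nothing is read from the rise. WT3 and WT5 were the lowest pair for 10 of the 118 (10.1% of all genes) and the highest for 14 (8.43%).

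Among the cyclases and their binding proteins, 9 of 12 were measured. Apart from Adcy7 they differed by -0.14 (Adcy4) to 0.42 (Adcy6). The median of the 9 was 0.05.

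G protein subunits held the largest average difference of the list, that of Gnb2, a beta subunit. Gnb2 measured 8.52, 8.92, 8.09 and 7.40 in KO11 to KO14 and 6.05, 5.70, 7.25 and 7.88 in WT3, WT5, WT7 and WT9. The groups overlapped, and WT3 and WT5 were again the lowest pair. Its difference was 1.51 (SE 0.51, adjusted p = 0.860, limma) and 0.67 without WT3 and WT5. Gnb5, a beta subunit that pairs with regulators of G protein signalling, measured 5.22 to 5.53 in the arrays labelled KLF2-/- and 5.05 to 5.19 in wild type. Gng10, a gamma subunit, measured 8.78 to 8.87 and 8.36 to 8.77. Both had a difference of 0.27 (SE 0.12 each) and did not pass over all probe sets. Among alpha subunits Gnaz differed by 0.16, and 6 of 7 listed alpha subunits were measured, with a median of 0.16. The 12 beta and gamma subunits had a median of 0.10.

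G protein regulators, receptors and downstream genes were spread around 0. Rgs2, a regulator of G protein signalling, measured 7.97 in WT3 and 8.29 in WT5 but 5.31 in WT7, so its difference of -0.85 became 0.16 without WT3 and WT5. Rgs3 differed by 0.25 and Gpsm1 by 0.18, and the median of 14 regulators was 0.02. Ramp2, which pairs with the receptor Calcrl to bind adrenomedullin, differed by 0.71 (SE 0.45) over all arrays and by 0.17 without WT3 and WT5. Over 20 measured stimulatory receptors and partners the median was -0.10 and the range -0.49 to 0.71. Hrh2, a histamine receptor, lay at -0.29 and the melanocortin receptor Mc1r at -0.28. Over 9 inhibitory receptors the median was 0.03 and the range -0.85 to 0.44. The prostaglandin receptor Ptger3 lay at 0.44, the sphingosine phosphate receptor S1pr1 at 0.39 and the dopamine receptor Drd2 at -0.32. Receptors were named by smallest p and not by size of difference.

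Protein kinase A subunits and inhibitors had a median of 0.01 over 8 genes, and Pkib, a peptide inhibitor of the kinase, differed by -0.26. Anchoring proteins, which tether the kinase, had a median of -0.02 over 10 genes, with Akap8l at 0.33, Akap8 at -0.28 and Akap3 at -0.23. Of 11 measured phosphodiesterases, which break down cyclic nucleotides, Pde1c lay at 3.28 to 3.35 in the arrays labelled KLF2-/- and 3.43 to 4.19 in wild type, at percentile 12.2 of brightness. Pde7a differed by 0.33 and Pde3a by -0.23, and their median was -0.01. Rapgef3, the exchange factor that cyclic AMP activates directly, differed by 0.36, beside its bright targets Rap1a (0.06) and Rap1b (0.10).

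CREB coactivators and response genes followed no single direction. Crebbp differed by 0.45, Crtc3 by 0.29 and Crem by 0.20, with a median of 0.20 over 5 genes. Per1, a clock gene with a cyclic AMP response element, measured 5.03, 5.005, 5.35 and 5.24 in KO11 to KO14 and 4.65, 4.69, 4.96 and 4.91 in wild type. Its groups were apart, with a difference of 0.35 (SE 0.14, adjusted p = 0.860, limma). Nr4a1, an orphan receptor induced by cyclic AMP, differed by 0.26 and the kinase gene Sik1 by -0.32. The median of the 10 response genes was -0.08.

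**Figure D4:**
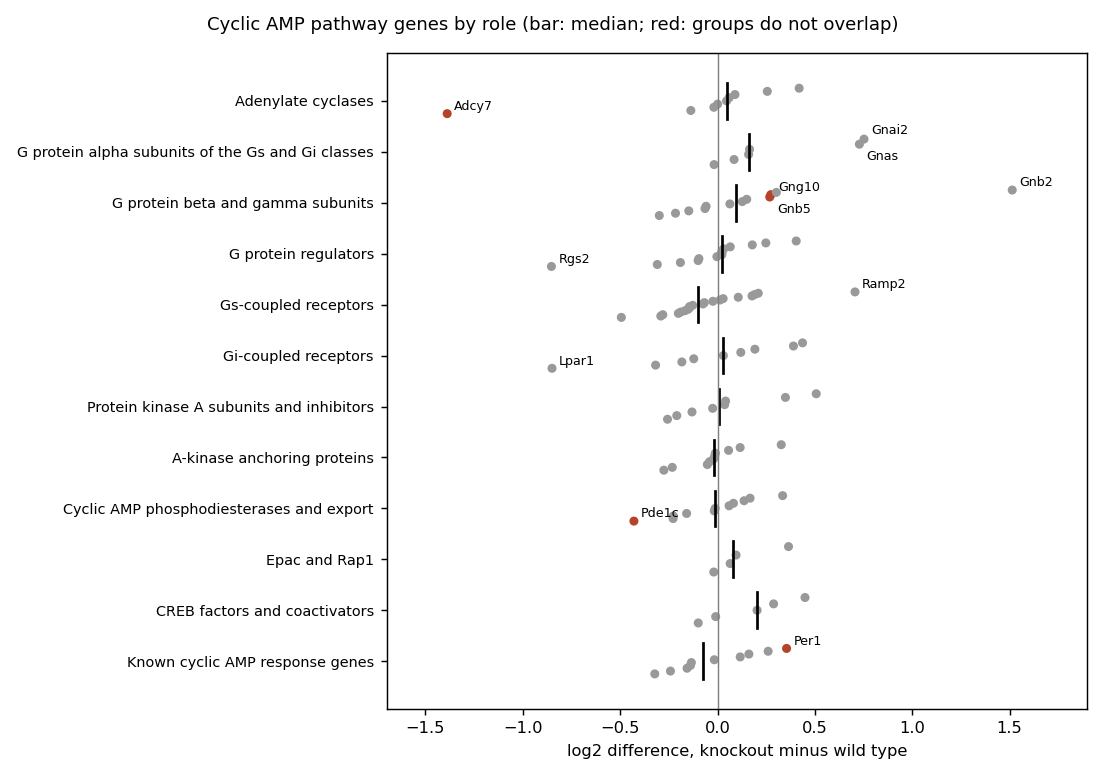
Log2 difference, KLF2-/- minus wild type (horizontal axis), of the 118 measured pathway genes by role, each from its brightest probe set. Bars are medians of a role and red points are the 5 genes whose groups do not overlap; Adcy7 lies at -1.39 and Gnb2 at 1.51.

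The genes whose pattern was most like that of the bright Adcy7 probe set were sought among 6190 other genes at or above the median level. After each group's mean was subtracted, so that the genotype difference played no part, the highest Pearson r over the 8 arrays were those of Ccz1 and Mkrn1 (0.97 each), Fmc1 (0.97), Cdca7l and Eef1d (0.96 each). These 5 genes differed between genotypes by -0.30 (Mkrn1) to 0.15 (Eef1d). On the values as deposited the highest r were those of Jak2 (0.96), the kinase of the erythropoietin receptor, then Rpap2 (0.94), Ndufb9 (0.93), Osbpl1a (0.92) and Ackr3 (0.92). Jak2 differed by -0.59, and its r after subtraction of group means was 0.96. With 8 arrays and 6190 genes compared, such values are a description of likeness.

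Marker lists for other cell types were read beside the members, as the mean deviation of a list on each array. Macrophage genes (12 of 12 measured, 4 at or above the median gene level) lay at 0.00 to 0.30 in the arrays labelled KLF2-/- and -0.30 to -0.02 in wild type, and Csf1r averaged 7.92. The groups were barely apart, with KO14 at 0.003 and WT7 at -0.017, in the opposite direction to the bright Adcy7 probe set. In wild type WT7 was the highest array for both, but WT9, next for Adcy7, was the lowest for macrophage genes. KO13 was the lowest array for Adcy7 and the highest for macrophage genes. The summed level of the macrophage genes on the log2 scale overlapped, at 9.39 to 10.33 and 9.22 to 9.47. Megakaryocyte genes (9 of 11 measured) overlapped, at -0.34 to 0.31 and -0.38 to 0.45, with summed levels of 10.25 to 11.28 and 10.25 to 11.54. Pf4, their brightest marker, averaged 10.42 in both groups, but the other markers did not all stay level. The largest differences of the list were 0.77 for Itga2b and -0.94 for Ppbp, in opposite directions.

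Endothelial genes (15 of 16 measured) lay at -0.14 to 0.42 in the arrays labelled KLF2-/- and -0.32 to 0.13 in wild type, with summed levels of 9.97 to 10.80 and 9.75 to 10.27. Visceral endoderm genes (13 of 14 measured) were lowest in KO14, at -2.03, and reached 0.88 in KO13. Their summed levels were 12.38 to 15.14 in the arrays labelled KLF2-/- and 14.37 to 14.76 in wild type. Mesenchyme genes (12 of 12 measured) ran from -0.87 in KO14 to 0.68 in KO12, with summed levels of 11.98 to 13.97, and of 12.40 to 13.57 in wild type. No marker was at 0, since the deposited scale has no zero. The part of these lists in the member differences was not tested.

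**Figure D5:**
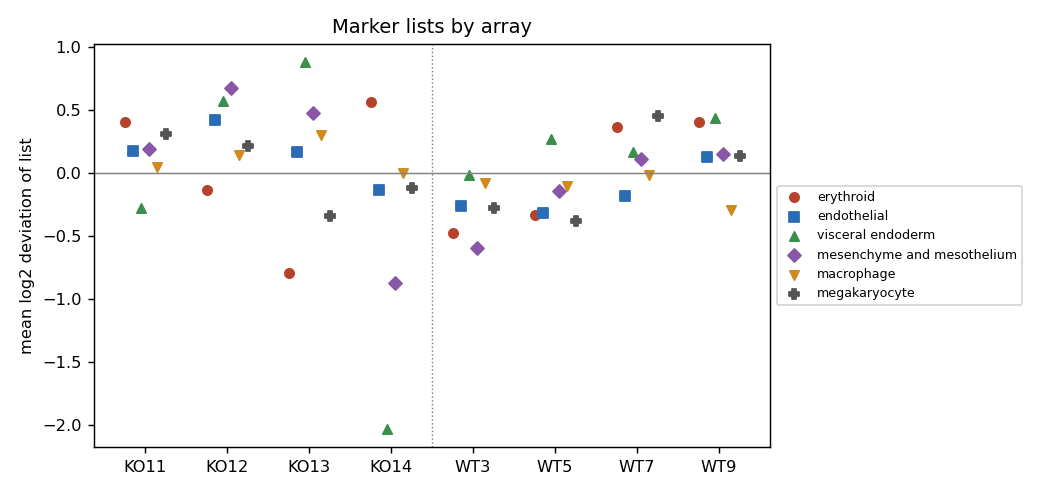
Mean log2 deviation (vertical axis) of 6 marker lists from their own average on each of the 8 arrays (horizontal axis), KLF2-/- left of the dotted line. The erythroid list runs from -0.79 in KO13 to 0.57 in KO14, and visceral endoderm reaches -2.03 in KO14.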

How the data were processed

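Expression was measured on 8 arrays, 1 per sample, and the authors deposited 1 log2 value per probe set and array. The submitters' processing notes name GCOS, RMA and affy, with no version, order or genome build. The authors computed and deposited a signed score of each probe set, headed S-score per the file headers, by steps the sources do not state. Its p-value and its q-value were deposited too. No depth applies to arrays, and their number limits the precision of every value. Groups and replicate numbers were taken from the sample titles.

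Values were used as deposited. The platform annotation gave 20380 of 22626 probe sets 1 gene symbol, 691 several and 1555 none, and 20351 of the first matched a GRCm38.p6 gene table under the same name. The comparison used limma 3.58.1 (R 4.3.3, lmFit, eBayes, no covariate, Benjamini-Hochberg over all probe sets, threshold 0.05), and the labels give no batch. They call the samples biological replicates, each a pool of yolk sacs. In 5 simulated tables of 22626 probe sets the fit recovered 235 of 500 planted 2-fold changes and 446 of 500 planted 4-fold ones. False were 28 of 709 calls, and 0 calls by limma with none changed. The simulated noise was independent between probe sets and arrays, without the structure that sets WT3 and WT5 apart. These rates therefore check the fit and do not give its power in the real arrays. Named were every member probe set, and in each role the 3 genes of smallest p and any whose groups were apart. Also named were 5 likest genes by each of 2 measures, the brightest markers, and the megakaryocyte markers of largest difference in each direction. The members, lists and rules were chosen with earlier results of these data known. Alternatives were quantile normalization, median centring, dim probe sets left out, array weights, a robust eBayes with trend, gene means, leaving out each array, leaving out WT3 and WT5, and the erythroid list as a covariate.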

Additional observations from a re-analysis of the deposited data

How the results depend on the processing

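No paired analysis was possible because the groups share no replicate number. Under all 15 alternatives run on probe sets, 0 probe sets passed an adjusted p of 0.05 by limma, while the number at an unadjusted p below 0.05 ran from 425 (without WT3 and WT5) to 2544 (array weights), beside 1222. The bright Adcy7 probe set stayed lower throughout, at -1.60 to -1.09 with single arrays left out and -1.57 to -1.33 otherwise. Of 220 recomputed member differences, 217 moved by less than 1 SD between replicates. The 3 that moved more did so without WT3 and WT5: Adcy7 1450065_at to -1.36, Gnai3 1428645_at to 0.46 and Prkaca to -0.03. The sign turned in 15 of the 220, and Prkaca's was the only one of these with a main difference above 0.3 in size. For the pathway list, genes at an unadjusted p below 0.05 were 6, against 15 with array weights, 3 with dim probe sets left out, where fewer genes were tested, 3 without WT3 and WT5, and 3 to 13 with single arrays left out. Genes whose groups were apart were 5, against 3 with dim probe sets left out, 10 without WT3 and WT5, and 5 to 12 with single arrays left out, where fewer arrays make separation easier. The share of all genes apart in each setting is not given here, so nothing is read from these counts. The cause of the other shifts was not tested. The sources do not give signal over background, which limits what the dim probe sets of Adcy7 and Gnas can show.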
